A study of Rattus norvegicus with 12 samples.

Results

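The comparison described here is of stretched with unstretched cardiomyocytes that both carried a control siRNA. It takes 6 of the 12 RNA sequencing libraries of a study of neonatal rat ventricular cardiomyocytes of the Wistar strain, which combined 2 siRNAs (control or against Wnt5a) with stretch or no stretch. The members were chosen by the treatment labels alone: 3 libraries of cells with control siRNA and no stretch (unstretched libraries 1 to 3) and 3 of cells with control siRNA and stretch (stretched libraries 1 to 3). Each library gives the authors' FPKM (fragments per gene, scaled to transcript length and library size) for the same 17312 gene symbols. The age of the animals in days, the sequence of the control siRNA and the degree, rhythm and duration of the stretch are not given in the labels. Whether the numbered libraries are separate cultures is not stated. All p-values therefore rest on the spread between libraries, which may be technical.

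Ventricular cardiomyocytes are the contractile cells of the heart wall. They sense mechanical load where the sarcomere is anchored, at Z-discs, at focal adhesions to the matrix and at the intercalated discs that join neighbouring cells, and through stretch-gated ion channels. Load on these cells is known to raise growth factor, calcium and MAP kinase signalling, protein synthesis and genes of the fetal heart such as the natriuretic peptides, and to lower genes of fatty acid oxidation and of calcium and potassium handling.

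Of the 17312 symbols, the 10518 with at least 1 FPKM in at least 3 of the 12 libraries were tested. Changes are stretched minus unstretched on the log2(FPKM + 1) scale, ± SE from a limma model of all 4 group means (8 residual degrees of freedom). This scale understates the change of low genes. A gene is said to have risen or fallen where its Benjamini-Hochberg adjusted p over all tested genes was under 0.05. FPKM carry no read numbers, so the depth is unknown. Among genes under 0.5 FPKM, 1041 of 1121 (92.9%) had values in whole-number ratios between libraries, and the value of 1 fragment differed by at most 1.15 times between the 6 libraries. Stretched library 3 stood apart: the second principal component of the 6 libraries, with 15% of the variance, placed it at −26.02 and stretched libraries 1 and 2 at 11.09 and 15.78. Its log2 values differed from theirs with SDs of 0.393 and 0.426, where the other pairs within a group had SDs of 0.237 to 0.277. Changes are therefore given also without it, from the same model fitted to the other 11 libraries: in what follows, a single value in parentheses after a log2 change and its SE is the change without library 3. For each gene list the counts and the median log2 change are followed by those without library 3 and with TPM scaling, in which every library has the same summed FPKM. List counts are to be read beside the shares of all tested genes. Of these 27.5% rose and 26.8% fell, 29.2% and 28.1% without library 3, and 13.8% and 42.7% with TPM scaling.

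The labelled cell type was checked against its markers. Of 19 cardiomyocyte markers the files list 18, which were all tested and which summed to 37132, 37212 and 39894 FPKM unstretched and 53599, 54745 and 44892 FPKM stretched. Of the 18, 5 rose with stretch and 7 fell, with a median log2 change of −0.24. Without library 3 these values were 6, 7 and −0.11, and with TPM scaling 2, 10 and −0.47. Markers of other cells were present. The fibroblast markers summed to 3514, 4021 and 3677 FPKM unstretched and to 4858, 4902 and 8417 FPKM stretched, with Col1a2 listed at 0 in all 6 libraries. Macrophage and leukocyte markers summed to 163, 206 and 166 FPKM unstretched and 292, 299 and 488 FPKM stretched, with the lymphocyte genes Cd3e and Ms4a1 listed at 0. In both lists stretched library 3 was highest. In a culture of several cell types, fewer cells of a type and less of an RNA per cell cannot be told apart.

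Stretch changed the level of 5711 of the 10518 genes tested (54.3%). Of these 2889 (27.5%) were higher and 2822 (26.8%) lower in the stretched libraries, and the median change of all tested genes was 0.01. Most changes were small: 1025 of the rises and 1343 of the falls were of at least 1.5-fold, 257 and 469 of at least 2-fold, and 22 and 37 of at least 4-fold. Without stretched library 3, 6035 genes were called (57.4%), 3075 of them higher (29.2%) and 2960 lower (28.1%). Of the calls made with all libraries 92.1% were made again without it in the same direction, and 0 in the opposite one. The libraries of the groups did not overlap for 6100 genes (58.0%). Named list genes were chosen by adjusted p. A lack of overlap in them is a description, to be read beside this share. The split into rises and falls depends on the scale. Summed FPKM were 588509 to 598628 in the unstretched and 676014 to 709021 in the stretched libraries, and TPM scaling moved the median of all genes to −0.19 and the calls to 1451 higher (13.8%) and 4493 lower (42.7%). Small rises therefore depend on the authors' scaling, and the value with TPM scaling is printed where it ends a call.

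**Figure D1:**
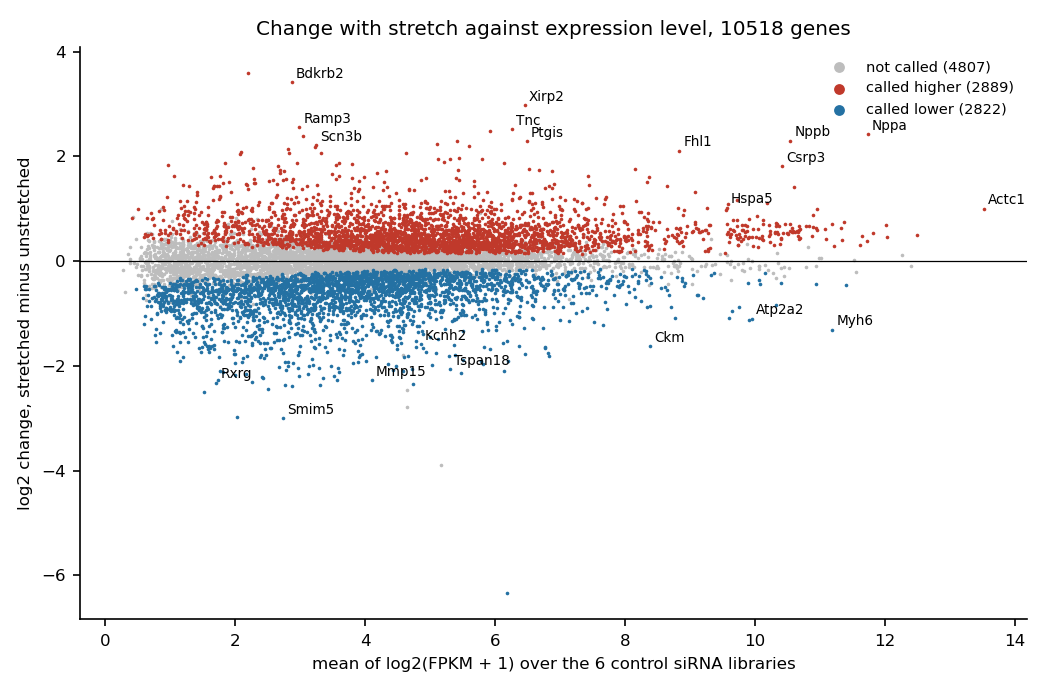
Change with stretch of every tested gene (vertical axis, log2 of stretched over unstretched on the FPKM + 1 scale) against its mean level in the 6 libraries (horizontal axis, log2). Coloured points are the 2889 genes that rose and the 2822 that fell, grey points those that did not pass the test, and the labelled genes include the largest changes.

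The largest rises included those of a receptor, a growth factor and enzymes of prostaglandin synthesis. Among the 20 genes with the largest rises, all without overlap between the groups by the rule that chose them, Il1rl1 encodes the receptor of interleukin 33, whose soluble form is a known marker of cardiac strain. It was at 32.8, 20.7 and 22.2 FPKM without stretch and 158, 162 and 115 FPKM with stretch, a log2 change of 2.49 ± 0.20 (adjusted p = 3.3e-06, 2.65 without library 3). All 3 stretched libraries lay far above the unstretched ones, and library 3 was the lowest of them. Hbegf, a growth factor shed from the cell membrane that binds the EGF receptor, was at 22.9, 17.3 and 15.3 FPKM without stretch and 117, 119.5 and 58.4 FPKM with stretch, 2.30 ± 0.31 (adjusted p = 6.7e-05, 2.63 without library 3). Ptgis, prostacyclin synthase, was at 45.4, 40.4 and 33.7 FPKM without stretch and 235, 199 and 164 FPKM with stretch, 2.29 ± 0.16 (adjusted p = 1.5e-06, 2.42 without library 3). Stretched library 3 was the lowest of its group in both genes and stayed above all unstretched libraries. Ptgs2, cyclooxygenase 2, which makes the substrate of Ptgis, rose by 2.07 ± 0.18 (2.13).

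Further large rises were of genes with other functions. Krt80, a type II keratin, rose by 2.38 ± 0.37 (2.67). Scn3b, a beta subunit of voltage-gated sodium channels, was at 4.51, 2.60 and 3.29 FPKM without stretch and 18.6, 18.3 and 21.3 FPKM with stretch, a log2 change of 2.21 ± 0.20 (adjusted p = 4.3e-06, 2.14 without library 3). Rnd1, a small GTPase that loosens the actin cytoskeleton, rose by 2.19 ± 0.33 (2.54), Fgl2, a fibrinogen-like protein, by 2.17 ± 0.22 (2.02), and Gprc5a, an orphan receptor induced by retinoic acid, by 2.09 ± 0.29 (2.48). Fhl1, a LIM protein bound to the spring region of titin, went from 265, 209 and 187 to 1000.3, 868 and 982 FPKM, the most abundant of these genes, with a log2 change of 2.11 ± 0.25 (adjusted p = 3.0e-05, 2.09 without library 3). Its lowest stretched library was above its highest unstretched one, as the rule for the largest rises required.

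The largest falls included enzymes, receptors and muscle proteins. Frem2, a protein of basement membranes, was at 14.7, 15.9 and 16.7 FPKM without stretch and 1.70, 2.62 and 2.37 FPKM with stretch, a log2 change of −2.39 ± 0.21 (adjusted p = 4.6e-06, −2.42 without library 3). Hadh, a dehydrogenase of mitochondrial fatty acid oxidation, was at 50.5, 59.8 and 67.4 FPKM without stretch and 7.95, 11.1 and 14.2 FPKM with stretch, −2.34 ± 0.20 (adjusted p = 3.4e-06, −2.52 without library 3). By the rule that chose the largest falls, their groups do not overlap. In Hadh, library 3 was the highest of the stretched ones. Lrrc39, a protein of the sarcomere's M-band, changed by −2.19 ± 0.21 (−2.35). Corin, the membrane protease that activates the atrial natriuretic peptide, was at 18.2, 20.5 and 13.7 FPKM without stretch and 3.13, 3.60 and 2.65 FPKM with stretch, −2.15 ± 0.22 (adjusted p = 1.1e-05, −2.06 without library 3). Epha4, an ephrin receptor, changed by −2.31 ± 0.17 (−2.26), Gnb3, a G protein beta subunit, by −2.36 ± 0.39 (−1.87), and Cited4, a transcriptional cofactor, by −2.23 ± 0.17 (−2.22). Rxrg, a retinoid X receptor, changed by −2.32 ± 0.24 (−2.30), and by −3.51 with a pseudocount of 0.1. Dhrs3, which reduces retinaldehyde, changed by −2.15 ± 0.21 (−2.23), and Dhrs7c, a dehydrogenase of the sarcoplasmic reticulum, by −2.20 ± 0.29 (−2.05).

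**Figure D2:**
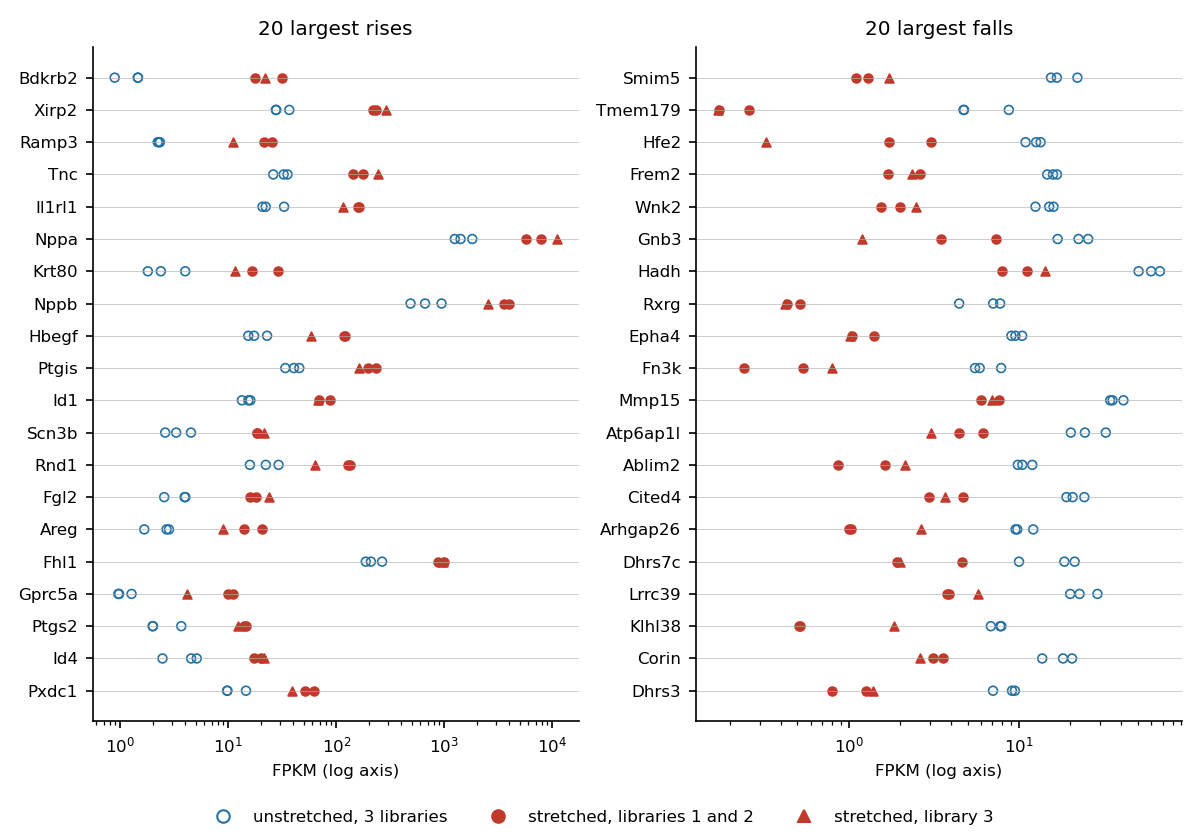
FPKM of the largest rises and falls in each of the 6 control siRNA libraries (horizontal axis, log scale), one gene per line; markers show unstretched and stretched libraries, with stretched library 3 marked apart. For every gene drawn the stretched and unstretched libraries do not overlap, by the rule that chose the genes.

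Both natriuretic peptides rose, while their receptors and processing enzymes moved both ways. The heart secretes these peptides under load, proteases activate or degrade them, and their receptors signal through cyclic GMP or clear them. 5 of the 9 tested genes rose and 3 fell, with a median of 0.43 (5, 3 and 0.55 without library 3, 5, 3 and 0.20 with TPM scaling), where 27.5% of all tested genes rose and 26.8% fell. The peptides Nppa and Nppb rose by 2.42 ± 0.35 (2.18) and 2.30 ± 0.39 (2.49). Npr1, the guanylyl cyclase receptor of both, was at 1.15, 1.38 and 1.27 FPKM without stretch and 2.72, 2.44 and 3.29 FPKM with stretch, a log2 change of 0.75 ± 0.14 (adjusted p = 8.6e-04, 0.66 without library 3). The clearance receptor Npr3 was at 13.5, 11.3 and 11.8 FPKM without stretch and 5.03, 3.91 and 3.88 FPKM with stretch, −1.33 ± 0.14 (adjusted p = 1.4e-05, −1.28 without library 3), and Npr2, the receptor of the C-type peptide, changed by −0.57 ± 0.11 (−0.65). The groups did not overlap for any of these receptors. Of the processing enzymes, Mme, neprilysin, which degrades the peptides, rose by 0.66 ± 0.13 (0.58), and Furin, which cleaves the precursor of the B-type peptide, by 0.43 ± 0.09 (0.55) and by 0.27 with quantile normalization, while the mean of Corin was 5.59-fold lower.

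Of the ligands, receptors and partners of vasoactive peptides 5 of the 15 tested genes rose and 3 fell, with a median of 0.05 (5, 4 and −0.05 without library 3, 4, 3 and −0.13 with TPM scaling). Over all tested genes 27.5% rose and 26.8% fell, and the list was near these shares. Edn1, the precursor of the vasoconstrictor endothelin 1, was at 4.77, 5.62 and 4.15 FPKM without stretch and 16.1, 18.1 and 11.3 FPKM with stretch, a log2 change of 1.45 ± 0.19 (adjusted p = 6.5e-05, 1.64 without library 3). By contrast its receptor Ednra was at 44.5, 45.5 and 51.6 FPKM without stretch and 14.3, 21.3 and 16.6 FPKM with stretch, −1.40 ± 0.12 (adjusted p = 4.3e-06, −1.38 without library 3). Ednrb, the other endothelin receptor, changed by −0.76 ± 0.19 (−0.61), and by −1.39 with a pseudocount of 0.1. The stretched libraries were all higher in the ligand and all lower in both receptors. Adm, the vasodilator adrenomedullin, rose by 0.57 ± 0.13 (0.67). Of the proteins that pair with its receptor, Ramp3 was at 2.32, 2.22 and 2.29 FPKM without and 25.6, 21.3 and 10.9 FPKM with stretch, a log2 change of 2.55 ± 0.24 (2.90). Ramp1 was at 54.5, 59.4 and 40.7 FPKM without and 30.9, 26.0 and 33.9 FPKM with stretch, −0.74 ± 0.18 (adjusted p = 0.00368, −0.82 without library 3). The 2 partners thus moved in opposite directions.

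In the EGF family 3 of 5 ligands and 0 of 3 receptors rose. Of all its members 4 of the 10 tested genes rose and 1 fell, with a median of 0.24 (5, 1 and 0.21 without library 3, 3, 3 and 0.05 with TPM scaling). Beside Hbegf, the ligand Areg (amphiregulin) was at 2.82, 2.67 and 1.67 FPKM without stretch and 20.6, 13.8 and 8.98 FPKM with stretch, a log2 change of 2.14 ± 0.29 (adjusted p = 7.2e-05, 2.42 without library 3), and Ereg (epiregulin) rose by 1.03 ± 0.29 (1.39). Erbb4, the neuregulin receptor of cardiomyocytes, changed by −1.82 ± 0.17 (−1.95). In the gp130 cytokine family 3 of the 15 tested genes rose and 2 fell, with a median of −0.03 (4, 2 and 0.05 without library 3, 3, 6 and −0.26 with TPM scaling). The receptor Osmr, which binds oncostatin M, was at 12.1, 11.99 and 11.8 FPKM without stretch and 23.3, 22.4 and 21.9 FPKM with stretch, 0.86 ± 0.07 (adjusted p = 3.2e-06, 0.88 without library 3). By contrast Lifr, the receptor of leukaemia inhibitory factor, was at 7.88, 9.56 and 9.01 FPKM without stretch and 3.28, 4.12 and 5.56 FPKM with stretch, −0.90 ± 0.17 (adjusted p = 6.3e-04, −1.06 without library 3). These receptors share the gp130 chain, and their stretched libraries lay on opposite sides of the unstretched ones. The ligand Clcf1, of the same family, rose by 0.58 ± 0.14 (0.64).

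More BMP and activin genes rose than fell. 16 of the 34 tested genes rose and 2 fell, with a median of 0.39 (21, 2 and 0.41 without library 3, 13, 3 and 0.23 with TPM scaling). Gdf6, a BMP family ligand, was at 4.02, 3.29 and 2.07 FPKM without stretch and 15.8, 13.0 and 12.8 FPKM with stretch, a log2 change of 1.87 ± 0.17 (adjusted p = 5.7e-06, 1.92 without library 3). Inhba, the activin A subunit, was at 41.6, 30.5 and 29.3 FPKM without stretch and 84.5, 82.5 and 81.4 FPKM with stretch, 1.29 ± 0.13 (adjusted p = 8.7e-06, 1.3 without library 3). All 3 stretched libraries of both genes lay above the unstretched ones. Of the 10 tested effectors 7 rose and 0 fell, among them Id1, a direct BMP target that blocks basic helix-loop-helix factors, at 15.99, 15.3 and 13.3 FPKM without stretch and 87.0, 69.2 and 67.0 FPKM with stretch, 2.24 ± 0.21 (adjusted p = 5.9e-06, 2.31 without library 3). Id3 and Id4, of the same family, rose by 1.39 ± 0.17 (1.26) and 2.07 ± 0.22 (2.01), and the inhibitory Smad7 by 0.78 ± 0.11 (0.82). Bambi, a decoy receptor, changed by −0.38 ± 0.09 (−0.47), and Acvr2b, an activin receptor, by −0.91 ± 0.19 (−0.79).

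More feedback genes of the MAP kinases and more AP-1 factors rose than fell. MAP kinase phosphatases (the Dusp genes) and Sprouty proteins are induced by the pathway they restrain. 8 of the 16 tested genes rose and 2 fell, with a median of 0.26 (8, 2 and 0.35 without library 3, 5, 2 and 0.06 with TPM scaling). Without unstretched library 2 or stretched library 1, 5 rose. Dusp6, which acts on ERK, was at 17.5, 17.0 and 14.1 FPKM without stretch and 49.1, 56.5 and 41.8 FPKM with stretch, a log2 change of 1.54 ± 0.16 (adjusted p = 1.1e-05, 1.65 without library 3). Dusp1 was at 50.5, 46.7 and 49.9 FPKM without stretch and 103, 84.7 and 64.7 FPKM with stretch, 0.74 ± 0.13 (adjusted p = 4.0e-04, 0.91 without library 3). Stretched library 3 was the lowest of its group in both genes, and the groups did not overlap. Spry2 rose by 0.95 ± 0.10 (1.06), while its relative Spry1 changed by −0.42 ± 0.10 (−0.42) and Dusp5 by −0.66 ± 0.12 (−0.51). All 4 Fos and 3 Jun family genes tested rose, 2 and 2 of them with TPM scaling. In the whole AP-1 list 10 of the 16 tested genes rose and 0 fell, with a median of 0.45 (11, 1 and 0.57 without library 3, 7, 1 and 0.23 with TPM scaling). Fosl1 was at 2.97, 3.25 and 2.75 FPKM without stretch and 12.6, 13.4 and 7.37 FPKM with stretch, 1.57 ± 0.21 (adjusted p = 5.5e-05, 1.82 without library 3), Junb rose by 0.67 ± 0.10 (0.80), Jund by 0.71 ± 0.13 (0.86) and the small Maf factor Maff by 1.33 ± 0.24 (1.63). The stress factor Atf3 rose by 1.61 ± 0.30 (2.02).

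Most early response genes of the Egr and Nr4a families rose, while Klf genes moved both ways. Of 5 Egr genes and their corepressors 4 rose and 0 fell (3 and 1 with TPM scaling). Of 3 Nr4a genes 2 rose and 0 fell (2 and 0), and of 12 Klf genes 4 rose and 3 fell (1 and 4). The Klf counts were near the shares of all tested genes, of which 27.5% rose and 26.8% fell. In the whole list 10 of the 20 tested genes rose and 3 fell, with a median of 0.16 (11, 4 and 0.26 without library 3, 6, 5 and −0.04 with TPM scaling). Egr3 was at 0.961, 2.23 and 0.676 FPKM without stretch and 3.59, 4.65 and 4.45 FPKM with stretch, a log2 change of 1.24 ± 0.25 (adjusted p = 0.00116, 1.21 without library 3), and Egr2 rose by 1.08 ± 0.22 (1.33). Nab2, a corepressor that Egr proteins induce, was at 23.7, 24.2 and 21.5 FPKM without stretch and 36.0, 35.8 and 36.0 FPKM with stretch, 0.62 ± 0.07 (adjusted p = 1.4e-05, 0.61 without library 3). Nr4a2, an orphan nuclear receptor, rose by 0.46 ± 0.11 (0.55) and Klf4 by 0.74 ± 0.09 (0.63). The falls were all of Klf genes: Klf13 by −0.57 ± 0.09 (−0.56), Klf11 by −0.92 ± 0.16 (−0.70) and Klf15, a repressor of cardiac growth, by −0.59 ± 0.18 (−0.80). Klf15 did not pass the test without unstretched library 3 or without stretched library 2.

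With all libraries, no cardiac transcription factor rose and several fell. 0 of the 25 tested genes rose and 11 fell, with a median of −0.33 (3, 12 and −0.31 without library 3, 0, 15 and −0.55 with TPM scaling). Tbx5, a T-box factor of the developing heart, was at 18.9, 20.3 and 20.6 FPKM without stretch and 7.60, 7.31 and 6.48 FPKM with stretch, a log2 change of −1.36 ± 0.09 (adjusted p = 1.3e-06, −1.31 without library 3). Irx4, an Iroquois factor of the ventricle, was at 36.9, 38.7 and 42.5 FPKM without stretch and 8.45, 9.67 and 9.96 FPKM with stretch, −1.96 ± 0.16 (adjusted p = 3.4e-06, −2.01 without library 3), and its relatives Irx3 and Irx5 changed by −1.07 ± 0.12 (−1.02) and −0.87 ± 0.10 (−0.87). Prox1, a homeobox factor needed for sarcomere structure, changed by −1.53 ± 0.10 (−1.53), with its 3 stretched libraries (4.13, 4.40 and 4.28 FPKM) below all unstretched ones (14.3, 13.9 and 14.2 FPKM).

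Of the regulators of oxidative metabolism more fell than rose. 1 of the 21 tested genes rose and 12 fell, with a median of −0.30 (1, 11 and −0.35 without library 3, 0, 15 and −0.52 with TPM scaling), and of 11 nuclear receptors 8 fell and 0 rose. Ppara, the receptor that controls fatty acid oxidation, was at 11.5, 8.94 and 11.7 FPKM without stretch and 3.77, 3.95 and 4.47 FPKM with stretch, a log2 change of −1.20 ± 0.11 (adjusted p = 6.4e-06, −1.26 without library 3). Its partner Rxra was at 39.5, 40.4 and 40.5 FPKM without stretch and 22.7, 19.8 and 22.1 FPKM with stretch, −0.87 ± 0.07 (adjusted p = 3.7e-06, −0.89 without library 3). Ppargc1a, the coactivator of mitochondrial biogenesis, was at 24.4, 26.2 and 27.1 FPKM without stretch and 8.34, 11.2 and 10.3 FPKM with stretch, −1.31 ± 0.13 (adjusted p = 8.1e-06, −1.33 without library 3). In these 3 genes every stretched library was below every unstretched one. Perm1, a muscle regulator of the same pathway, changed by −1.74 ± 0.19 (−1.85). The single rise was of Tfam, the mitochondrial DNA-binding factor, by 0.37 ± 0.07 (0.43), and it was lost with TPM scaling: 0.15 (adjusted p = 0.0641).

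Clock genes and the calcineurin and CaMKII pathways showed mixed changes. Of the clock genes 6 of the 16 tested genes rose and 2 fell, with a median of 0.07 (6, 3 and 0.17 without library 3, 5, 4 and −0.12 with TPM scaling). Arntl (Bmal1), an activator of the clock, was at 8.11, 7.93 and 7.43 FPKM without stretch and 19.4, 17.9 and 16.8 FPKM with stretch, a log2 change of 1.11 ± 0.09 (adjusted p = 3.0e-06, 1.16 without library 3). Bhlhe40 and Ciart, both repressors, rose by 1.23 ± 0.11 (1.34) and 1.08 ± 0.10 (1.02), while Per3 changed by −0.94 ± 0.14 (−1.02) and the output factor Dbp by −0.92 ± 0.15 (−1.08). In the calcineurin, CaMKII and HDAC list 5 of the 21 tested genes rose and 10 fell, with a median of −0.26 (5, 10 and −0.29 without library 3, 3, 15 and −0.48 with TPM scaling). Without unstretched library 2, 3 rose. Rcan1, which calcineurin activity induces, was at 162, 131 and 119.5 FPKM without stretch and 429, 374 and 190.2 FPKM with stretch, 1.19 ± 0.30 (adjusted p = 0.00473, 1.55 without library 3), and its relative Rcan2 changed by −1.82 ± 0.14 (−1.98). Of 9 CaMKII, HDAC and Mef2 genes 8 fell. Hdac9 changed by −1.36 ± 0.12 (−1.49), Hdac5 by −0.60 ± 0.08 (−0.51), Mef2d by −0.55 ± 0.07 (−0.48) and Camk2a by −1.13 ± 0.24 (−0.79). Hdac5 and Hdac9 repress Mef2 factors in muscle.

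More genes of intermediate filaments, tubulins and Z-discs rose than fell. These parts of the cytoskeleton bear or sense load around the sarcomere. Of the intermediate filaments 10 of the 13 tested genes rose and 0 fell, with a median of 0.59 (11, 1 and 0.68 without library 3, 5, 1 and 0.49 with TPM scaling). Without stretched library 1 or 2, 6 rose. All 4 keratins tested rose, 1 of them with TPM scaling. The keratin median was 1.53, 1.67 and 0.14 in stretched libraries 1 to 3. Nes, nestin, was at 11.5, 9.88 and 8.89 FPKM without stretch and 38.6, 34.3 and 33.1 FPKM with stretch, a log2 change of 1.71 ± 0.15 (adjusted p = 4.7e-06, 1.76 without library 3). Des, desmin, the filament of muscle cells, was at 573, 542 and 584 FPKM without stretch and 1578, 1088 and 1203 FPKM with stretch, 1.17 ± 0.16 (adjusted p = 8.5e-05, 1.21 without library 3). The lamins Lmna and Lmnb2 rose by 0.73 ± 0.09 (0.76) and 0.53 ± 0.11 (0.57). All stretched libraries were above all unstretched ones in Nes, Des and Lmna. Of the stathmins, tubulins and their partners 14 of the 24 tested genes rose and 6 fell, with a median of 0.41 (14, 5 and 0.39 without library 3, 10, 7 and 0.19 with TPM scaling). Tubb6 was at 67.0, 60.1 and 53.0 FPKM without stretch and 162, 134 and 149 FPKM with stretch, 1.29 ± 0.14 (adjusted p = 1.7e-05, 1.29 without library 3), Tubb2a rose by 0.79 ± 0.12 (0.76) and Tubb4b by 1.20 ± 0.14 (1.24), while Tuba8 changed by −1.01 ± 0.21 (−1.24). Tubulin genes are near-identical copies, and how reads matching several were assigned is not stated.

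Of the Z-disc and stretch sensor proteins 11 of the 20 tested genes rose and 3 fell, with a median of 0.49 (13, 2 and 0.61 without library 3, 7, 5 and 0.27 with TPM scaling). Without unstretched library 3, 7 rose. The list median was 0.65, 0.61 and 0.04 in stretched libraries 1 to 3. For its 14 Z-disc genes it was 0.48, 0.51 and −0.21, and for the 6 I-band and Xin genes 1.41, 1.38 and 0.96. Csrp3, the muscle LIM protein held to take part in load sensing, was at 888, 719 and 596 FPKM without stretch and 2867, 2571 and 2275 FPKM with stretch, a log2 change of 1.82 ± 0.21 (adjusted p = 2.2e-05, 1.90 without library 3). It was abundant in every library and lowest of its group in stretched library 3, without overlap. Pdlim7 rose by 0.82 ± 0.11 (0.89). Cryab, a small heat shock protein that protects desmin and titin, rose by 0.88 ± 0.17 (1.03), and by 0.45 with quantile normalization. Fhl2, a LIM protein of the same family as Fhl1, moved the other way at 409, 449 and 489.7 FPKM without stretch and 252, 269.7 and 224 FPKM with stretch, −0.85 ± 0.09 (adjusted p = 8.8e-06, −0.78 without library 3), and Ldb3, which cross-links alpha-actinin, changed by −0.69 ± 0.15 (−0.51).

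At the intercalated disc 2 of the 14 tested genes rose and 4 fell, with a median of 0.07 (7, 3 and 0.23 without library 3, 1, 6 and −0.16 with TPM scaling). Beside these counts stand 27.5% of all tested genes that rose and 26.8% that fell. Without unstretched library 1, 2 of the list fell. Leaving out any control siRNA library other than stretched library 3 left 1 rise. Library 3 was at −0.35 on this median, against 0.23 and 0.16 in libraries 1 and 2. Gja1, connexin 43, the main gap junction protein of the ventricle, was at 484, 529 and 518 FPKM without stretch and 348, 386 and 259 FPKM with stretch, a log2 change of −0.64 ± 0.12 (adjusted p = 7.9e-04, −0.47 without library 3). Gja5, the connexin of the atria and the conduction system, was at 102, 107 and 96.2 FPKM without stretch and 58.4, 68.9 and 62.7 FPKM with stretch, −0.67 ± 0.10 (adjusted p = 1.8e-04, −0.67 without library 3). Tmem65, a protein that binds connexin 43 at the disc, rose by 0.49 ± 0.09 (0.44). The 2 connexins were below every unstretched library in all 3 stretched ones.

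Most potassium channel genes fell. These channels set the resting potential and end the action potential. 2 of the 24 tested genes rose and 14 fell, with a median of −0.79 (2, 15 and −0.87 without library 3, 2, 16 and −0.92 with TPM scaling). Of 8 inward rectifier genes (with their sulphonylurea receptors) 7 fell, and of 6 voltage-gated genes 5 fell. Kcnh2, which carries the rapid delayed rectifier current, was at 47.5, 51.4 and 48.9 FPKM without stretch and 12.8, 17.3 and 17.6 FPKM with stretch, a log2 change of −1.58 ± 0.11 (adjusted p = 1.4e-06, −1.66 without library 3). Kcnj11, the pore of the ATP-sensitive channel, was at 24.7, 26.4 and 25.9 FPKM without stretch and 6.54, 8.88 and 6.34 FPKM with stretch, −1.71 ± 0.12 (adjusted p = 1.4e-06, −1.63 without library 3), and its subunit Abcc8 changed by −1.93 ± 0.15 (−1.79). All 3 were lower in every stretched library. Kcnj2, a main gene of the inward rectifier current, changed by −1.42 ± 0.15 (−1.28), and Kcnd3, of the transient outward current, by −1.26 ± 0.15 (−1.27). The 2 rises were of Kcnk2 (TREK-1), a 2-pore channel opened by membrane stretch, at 6.73, 6.06 and 4.10 FPKM without stretch and 11.2, 10.8 and 12.8 FPKM with stretch, 0.95 ± 0.15 (adjusted p = 2.3e-04, 0.88 without library 3), and Kcnn4, a calcium-activated channel, by 0.73 ± 0.15 (0.72).

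Of the sodium and pacemaker channel genes 1 of the 10 tested genes rose and 4 fell, with a median of −0.44 (1, 7 and −0.56 without library 3, 1, 8 and −0.66 with TPM scaling). Both pacemaker channels tested fell. Hcn2 was at 7.002, 6.33 and 8.46 FPKM without stretch and 1.42, 1.96 and 1.99 FPKM with stretch, a log2 change of −1.56 ± 0.19 (adjusted p = 3.4e-05, −1.62 without library 3). Hcn4 was at 42.9, 38.9 and 36.9 FPKM without stretch and 24.0, 27.5 and 28.2 FPKM with stretch, −0.56 ± 0.12 (adjusted p = 0.00147, −0.60 without library 3). Fgf13, an intracellular modulator of sodium channels, was at 38.1, 40.9 and 39.5 FPKM without stretch and 10.1, 13.3 and 15.2 FPKM with stretch, −1.56 ± 0.12 (adjusted p = 2.4e-06, −1.68 without library 3). In all 3 genes the stretched libraries lay below the unstretched ones, while Scn3b rose as above.

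More genes of adrenergic and cyclic AMP signalling fell than rose. Beta-adrenergic receptors raise heart rate and force through cyclic AMP. 4 of the 33 tested genes rose and 16 fell, with a median of −0.19 (4, 14 and −0.30 without library 3, 3, 22 and −0.42 with TPM scaling). Adrb1, the main beta receptor of cardiomyocytes, was at 16.6, 19.4 and 19.1 FPKM without stretch and 6.49, 6.49 and 6.70 FPKM with stretch, a log2 change of −1.35 ± 0.09 (adjusted p = 1.0e-06, −1.37 without library 3). Adrb1 was lower in all 3 stretched libraries. Adcy5, a main cardiac adenylyl cyclase, was at 23.6, 26.8 and 26.4 FPKM without stretch and 7.57, 7.48 and 8.22 FPKM with stretch, −1.60 ± 0.12 (adjusted p = 1.8e-06, −1.64 without library 3). The alpha receptor Adra1b changed by −1.79 ± 0.16 (−1.84). Rgs2, which damps Gq signalling, rose by 0.68 ± 0.14 (0.78), and Rgs6, which damps the response to acetylcholine, changed by −1.87 ± 0.16 (−1.90). The phosphodiesterase Pde3a changed by −0.85 ± 0.09 (−0.91) and the anchoring protein Akap6 by −0.81 ± 0.09 (−0.74).

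More genes of energy transfer and oxidation fell than rose. Of the creatine and adenylate kinase genes 1 of the 12 tested genes rose and 7 fell, with a median of −0.46 (1, 7 and −0.51 without library 3, 1, 9 and −0.68 with TPM scaling). Ckb, brain-type creatine kinase, was at 113, 119.6 and 125 FPKM without stretch and 80.0, 75.9 and 80.4 FPKM with stretch, a log2 change of −0.59 ± 0.09 (adjusted p = 1.5e-04, −0.61 without library 3). Ckm, the muscle type, was at 529, 597 and 649.8 FPKM without stretch and 206, 292 and 112 FPKM with stretch, −1.63 ± 0.26 (adjusted p = 2.0e-04, −1.26 without library 3). Slc6a8, which imports creatine, changed by −0.33 ± 0.09 (−0.26), Gamt, which makes it, by −0.75 ± 0.16 (−0.59), Ak1 by −0.98 ± 0.11 (−1.03) and the AMP deaminase Ampd3 by −1.67 ± 0.19 (−1.81). Of the TCA cycle and pyruvate genes 1 of the 31 tested genes rose and 21 fell, with a median of −0.31 (1, 20 and −0.30 without library 3, 0, 28 and −0.54 with TPM scaling). Without any 1 of the unstretched libraries 0 rose. Pdk4, a kinase that turns off pyruvate dehydrogenase, was at 19.1, 22.1 and 25.2 FPKM without stretch and 5.42, 7.49 and 5.64 FPKM with stretch, −1.69 ± 0.17 (adjusted p = 8.6e-06, −1.64 without library 3). Ogdh, a subunit of oxoglutarate dehydrogenase, was at 127, 131 and 130.4 FPKM without stretch and 88.3, 97.1 and 85.8 FPKM with stretch, −0.51 ± 0.06 (adjusted p = 4.0e-05, −0.48 without library 3). The groups overlapped in neither gene. Idh2 changed by −1.08 ± 0.17 (−0.83), Mdh1 by −0.64 ± 0.09 (−0.56) and Pdk2 by −1.33 ± 0.16 (−1.25).

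Enzymes that oxidise branched-chain amino acids fell almost throughout. 0 of the 17 tested genes rose and 16 fell, with a median of −0.58 (0, 16 and −0.62 without library 3, 0, 16 and −0.78 with TPM scaling). Aldh6a1, of the valine pathway, was at 31.9, 35.2 and 42.0 FPKM without stretch and 12.2, 16.2 and 14.7 FPKM with stretch, a log2 change of −1.28 ± 0.13 (adjusted p = 7.6e-06, −1.30 without library 3). Ivd, isovaleryl-CoA dehydrogenase of the leucine pathway, was at 45.9, 47.4 and 57.2 FPKM without stretch and 24.1, 29.2 and 24.2 FPKM with stretch, −0.93 ± 0.11 (adjusted p = 2.6e-05, −0.89 without library 3). Bckdhb, a subunit of the dehydrogenase complex that commits these amino acids to oxidation, was at 15.5, 13.7 and 17.5 FPKM without stretch and 7.20, 8.41 and 8.05 FPKM with stretch, −0.89 ± 0.11 (adjusted p = 3.4e-05, −0.91 without library 3). All stretched libraries of the 3 genes lay below the unstretched ones. Of the mitochondrial ribosome genes 9 of the 66 tested genes rose and 13 fell, with a median of −0.03 (14, 11 and −0.01 without library 3, 1, 37 and −0.24 with TPM scaling). With TPM scaling 13.8% of all tested genes rose and 42.7% fell. Without unstretched library 3, 5 mitochondrial ribosome genes rose. Mrps23 changed by −0.49 ± 0.08 (−0.40) and Mrps18b rose by 0.67 ± 0.10 (0.75).

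More translation factors, amino acid transporters and tRNA synthetases rose than fell. Of the translation factors 34 of the 52 tested genes rose and 7 fell, with a median of 0.31 (34, 7 and 0.36 without library 3, 20, 12 and 0.09 with TPM scaling). Without unstretched library 3, 4 fell. Of 36 initiation factors 26 rose and 2 fell, and with TPM scaling 15 rose and 5 fell. Eif4e, the cap-binding protein, was at 43.3, 42.2 and 43.8 FPKM without stretch and 66.1, 64.8 and 62.0 FPKM with stretch, a log2 change of 0.57 ± 0.06 (adjusted p = 1.0e-05, 0.59 without library 3), and Eif4a1, its helicase partner, rose by 0.74 ± 0.08 (0.81). Eif1a rose by 1.13 ± 0.09 (1.15) and Eif2s2, a subunit of eIF2, by 0.80 ± 0.07 (0.81). Of 8 genes that restrain translation 4 fell and 1 rose. Pdcd4, an inhibitor of eIF4A, was at 47.6, 45.0 and 54.0 FPKM without stretch and 20.8, 25.4 and 29.0 FPKM with stretch, −0.94 ± 0.13 (adjusted p = 1.0e-04, −1.05 without library 3). Eef2k, the kinase that stops elongation, was at 31.2, 34.3 and 38.7 FPKM without stretch and 16.3, 12.9 and 22.1 FPKM with stretch, −1.01 ± 0.15 (adjusted p = 1.2e-04, −1.20 without library 3). The groups did not overlap for Eif4e, Pdcd4 or Eef2k.

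In the list of amino acid supply and tRNA charging 37 of the 51 tested genes rose and 2 fell, with a median of 0.47 (35, 3 and 0.42 without library 3, 26, 4 and 0.26 with TPM scaling). Of 20 tRNA synthetases 18 rose and 1, Dars, fell, with a change of −0.21 ± 0.06 (−0.23). Tars, the threonyl synthetase, was at 38.8, 37.5 and 39.3 FPKM without stretch and 73.1, 63.8 and 68.8 FPKM with stretch, a log2 change of 0.81 ± 0.06 (adjusted p = 1.8e-06, 0.81 without library 3). Hars, the histidyl one, was at 42.5, 41.5 and 37.8 FPKM without stretch and 71.1, 69.6 and 67.3 FPKM with stretch, 0.76 ± 0.06 (adjusted p = 3.3e-06, 0.78 without library 3). Atf4, the factor that induces amino acid genes under stress, was at 218, 218 and 222 FPKM without stretch and 445, 419 and 394 FPKM with stretch, 0.93 ± 0.06 (adjusted p = 1.1e-06, 0.97 without library 3). All stretched libraries were higher in these 3 genes. Of the 11 transporters 8 rose and 0 fell, among them Slc1a5, which imports glutamine, by 1.25 ± 0.11 (1.13) and Slc3a2, the common chain of several transporters, by 0.68 ± 0.06 (0.69). Got1, the cytosolic aspartate aminotransferase, changed by −0.35 ± 0.08 (−0.35).

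Genes of the endoplasmic reticulum (ER), where secreted and membrane proteins are folded, rose together. 51 of the 59 tested genes rose and 0 fell, with a median of 0.58 (51, 0 and 0.55 without library 3, 37, 1 and 0.35 with TPM scaling). All 13 chaperones tested rose (12 with TPM scaling), as did 11 of 12 disulphide and proline isomerases and 21 of 24 genes of translocation and export. Hspa5 (BiP), the main ER chaperone, was at 540.1, 546 and 508 FPKM without stretch and 1196, 1049.8 and 1008 FPKM with stretch, a log2 change of 1.02 ± 0.09 (adjusted p = 4.5e-06, 1.08 without library 3). Dnajc3, its cochaperone and an inhibitor of the kinase PERK, was at 44.1, 42.5 and 48.3 FPKM without stretch and 89.0, 82.5 and 101 FPKM with stretch, 1.0 ± 0.08 (adjusted p = 3.6e-06, 0.92 without library 3). Sec61a1, the pore of the translocon, was at 76.8, 75.6 and 71.0 FPKM without stretch and 140.1, 129 and 137 FPKM with stretch, 0.85 ± 0.06 (adjusted p = 1.9e-06, 0.84 without library 3). All 3 stretched libraries, library 3 included, lay above the unstretched ones in these genes. Ssr1, of the translocon-associated complex, rose by 1.09 ± 0.08 (1.0), Kdelr2, which returns ER proteins from the Golgi, by 0.77 ± 0.06 (0.76), and Ppib, cyclophilin B, by 0.64 ± 0.06 (0.61). All cell types of such a culture express these genes, and which cells carried the rise was not tested.

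The promoters of the ER list were searched for the ER stress element, bound by ATF6 together with NF-Y. It was searched as CCAAT, any 9 bases and CCACG, and so holds a CCAAT box. The 250 bases before the transcription start were read on both strands from RefSeq promoters of the assembly GRCr8, which is newer than the build of the expression files. The match was in 7 of 48 ER list promoters (14.6%), in 21 of all 27457 promoters (0.0765%) and in 16 of the 8050 promoters of tested genes (0.199%). An element named for ER stress was looked up in ER genes, so these shares are a description, and no test was made. The 7 are printed to show where the match lies in each promoter. Each runs 5′ to 3′ on the gene's strand with up to 25 bases on either side of the match. Capitals mark the match, which reads CGTGG, 9 bases and ATTGG where it lies on the opposite strand.
Hspa5, chr3:38452948-38453015, plus strand: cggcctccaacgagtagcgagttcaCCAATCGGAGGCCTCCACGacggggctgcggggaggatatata
Hsp90b1, chr7:23012322-23012494, minus strand: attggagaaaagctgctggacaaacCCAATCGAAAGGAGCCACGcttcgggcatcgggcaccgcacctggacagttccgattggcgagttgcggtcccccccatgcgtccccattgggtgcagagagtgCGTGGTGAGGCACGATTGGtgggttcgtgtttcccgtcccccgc
Dnajc3, chr15:102432509-102432577, plus strand: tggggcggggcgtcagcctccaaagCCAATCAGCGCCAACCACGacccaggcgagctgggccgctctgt
Creld2, chr7:121789214-121789282, plus strand: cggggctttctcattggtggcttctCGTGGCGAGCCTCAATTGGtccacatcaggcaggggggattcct
Canx, chr10:35158044-35158107, minus strand: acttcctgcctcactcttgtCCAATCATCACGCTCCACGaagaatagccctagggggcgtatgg
Xbp1, chr14:84604533-84604601, plus strand: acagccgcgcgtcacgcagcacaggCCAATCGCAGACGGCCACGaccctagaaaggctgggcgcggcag
Calr, chr19:40213117-40213178, plus strand: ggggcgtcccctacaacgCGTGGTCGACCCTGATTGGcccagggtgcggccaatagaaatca
The match lay 25 to 43 bases before the start in Hspa5, 47 to 65 in Xbp1, 115 to 133 in Dnajc3 and 212 to 230 in Canx. Hsp90b1 held 2 matches, at 158 to 176 and, on the opposite strand, at 54 to 72. Calr and Creld2 held theirs on the opposite strand, at 214 to 232 and 127 to 145. A match is a description of the letters and not a measured binding site.

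All 7 genes rose with stretch: beside Hspa5 and Dnajc3, Creld2, a secreted ER stress protein, by 0.98 ± 0.13 (0.93), Hsp90b1 (GRP94), a chaperone, by 0.88 ± 0.09 (0.83), the lectin chaperones Canx and Calr by 0.73 ± 0.09 (0.61) and 0.52 ± 0.07 (0.51), and Xbp1, a factor of the unfolded protein response, by 0.66 ± 0.09 (0.68). With quantile normalization Calr rose by 0.25. Hsp90b1 was at 359, 361 and 328 FPKM without stretch and 652, 594 and 691 FPKM with stretch, without overlap. In the whole ER list 51 of the 59 tested genes rose, so the rises of these 7 genes do not set them apart from their list. Whether the match had a part in the rises was not tested. Of the 8050 tested genes with a promoter 27.5% rose and 26.3% fell. Of the 16 among them with the match, which include the 7, 12 rose (75.0%) and 3 fell (18.8%), with a median of 0.68. The 5 other rises were of Derl3, by 1.38 ± 0.20 (1.32), Ero1b, by 0.69 ± 0.16 (0.54), Hnrnpa3, by 0.49 ± 0.06 (0.47), Zfand2a, by 0.99 ± 0.08 (0.98), and Zfp57, by 0.34 ± 0.09 (0.38). The falls were of Ankmy2, with a change of −0.25 ± 0.07 (−0.29), Pan2, with −0.86 ± 0.14 (−0.71), and Ppm1l, with −0.82 ± 0.09 (−0.90). Zfp57 did not pass with TPM scaling, 0.13 (adjusted p = 0.227), nor Ankmy2 without stretched library 1, where it was −0.19. Birc5 was next to the threshold, with a change of 0.48 ± 0.19 (adjusted p = 0.0504). It passed under 6 alternatives, among them quantile normalization (adjusted p = 0.0258) and leaving out stretched library 2 (0.68, adjusted p = 0.00627), and was 0.20 without library 3 (adjusted p = 0.17). The C/EBP-ATF element TGATGNAAN was in 133 of the 8050 promoters (1.65%), and of these genes 28.6% rose and 25.6% fell. In the amino acid and tRNA list it was in 7 of 30 promoters (23.3%). Of the 7 genes Slc7a1 rose by 0.93 ± 0.14 (1.06) and Slc38a1 by 0.49 ± 0.10 (0.52), and Got1 fell. Pycr1 (change of 0.20), Chac1 (0.19), Slc1a4 (0.15) and Trib3 (0.14) did not pass the test. The AP-1 sequence TGANTCA was in 350 tested promoters, and 25.7% of these genes rose.

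Within protein degradation, most genes of the standard proteasome rose and most of the immunoproteasome fell. Of the proteasome list 31 of the 39 tested genes rose and 4 fell, with a median of 0.35 (32, 4 and 0.36 without library 3, 16, 4 and 0.12 with TPM scaling). In the 19S regulatory particle 19 of 20 genes rose and in the 20S core 12 of 14, with 0 falls. With TPM scaling 13 and 3 of these rose. Psmd12 was at 89.3, 79.2 and 85.2 FPKM without stretch and 130.0, 134 and 124 FPKM with stretch, a log2 change of 0.61 ± 0.06 (adjusted p = 8.0e-06, 0.64 without library 3), and Psmd14, which removes ubiquitin, rose by 0.64 ± 0.07 (0.63). Of 5 immunoproteasome genes, which interferon induces, 4 fell. Psmb9 was at 9.33, 10.3 and 9.56 FPKM without stretch and 5.06, 5.51 and 5.69 FPKM with stretch, −0.74 ± 0.12 (adjusted p = 3.2e-04, −0.77 without library 3). Psmb8 was at 5.08, 4.87 and 4.27 FPKM without stretch and 3.04, 1.82 and 3.56 FPKM with stretch, −0.62 ± 0.18 (adjusted p = 0.0118, −0.76 without library 3). Library 3 was on the same side as the other stretched libraries in Psmd12, Psmb8 and Psmb9.

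Of the autophagy genes and muscle ubiquitin ligases 1 of the 31 tested genes rose and 14 fell, with a median of −0.20 (3, 15 and −0.17 without library 3, 0, 21 and −0.40 with TPM scaling). Fbxo32 (atrogin-1), a ligase that rises in muscle wasting, was at 84.2, 65.0 and 82.4 FPKM without stretch and 17.8, 25.4 and 21.9 FPKM with stretch, a log2 change of −1.79 ± 0.21 (adjusted p = 2.5e-05, −1.80 without library 3). Trim63 (MuRF1) was at 111, 117 and 124 FPKM without stretch and 74.6, 85.9 and 48.5 FPKM with stretch, −0.78 ± 0.17 (adjusted p = 0.00203, −0.54 without library 3). Ulk1, the kinase that starts autophagy, was at 19.96, 21.0 and 23.1 FPKM without stretch and 9.18, 11.3 and 9.27 FPKM with stretch, −1.04 ± 0.13 (adjusted p = 3.0e-05, −1.0 without library 3). All were lower in every stretched library. The mitophagy receptor Bnip3 changed by −0.66 ± 0.09 (−0.70), and Tfeb, the factor that controls lysosome genes, by −0.42 ± 0.07 (−0.39).

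More genes of the extracellular matrix rose than fell, and so did fibroblast markers. Of the collagens 13 of the 17 tested genes rose and 2 fell, with a median of 0.51 (11, 2 and 0.34 without library 3, 6, 3 and 0.30 with TPM scaling). With quantile normalization 8 rose. Col14a1 was at 23.7, 28.8 and 17.3 FPKM without stretch and 70.7, 53.4 and 124 FPKM with stretch, a log2 change of 1.73 ± 0.25 (adjusted p = 1.1e-04, 1.39 without library 3). Col16a1 was at 27.6, 31.0 and 28.7 FPKM without stretch and 43.2, 37.4 and 63.5 FPKM with stretch, 0.67 ± 0.14 (adjusted p = 0.00157, 0.45 without library 3). Col27a1, a fibrillar collagen, fell to 6.27, 5.90 and 7.67 from 12.3, 12.8 and 14.5 FPKM, −0.90 ± 0.10 (adjusted p = 1.5e-05, −1.0 without library 3), and Col4a3 changed by −1.67 ± 0.20 (−1.42). The collagen median in library 3 was 0.90, against 0.40 and 0.27 in libraries 1 and 2, and the fibroblast marker sum in library 3 was 8417 FPKM, against 4858 and 4902. Of the fibroblast markers 9 of the 13 tested genes rose and 0 fell, with a median of 0.62 (9, 1 and 0.44 without library 3, 6, 1 and 0.39 with TPM scaling). Dcn, decorin, was at 173, 256 and 219.7 FPKM without stretch and 289, 329 and 371 FPKM with stretch, 0.62 ± 0.14 (adjusted p = 0.00226, 0.53 without library 3). Postn, periostin, rose by 1.32 ± 0.29 (0.84). The part of fibroblast RNA in the matrix changes was not tested.

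Of the matrix-processing genes 21 of the 39 tested genes rose and 5 fell, with a median of 0.29 (21, 6 and 0.22 without library 3, 10, 6 and 0.06 with TPM scaling). Plat, tissue plasminogen activator, was at 102, 101 and 104 FPKM without stretch and 229, 216 and 242 FPKM with stretch, a log2 change of 1.15 ± 0.07 (adjusted p = 7.9e-07, 1.11 without library 3). Timp1, an inhibitor of matrix metalloproteinases, was at 151, 143 and 126 FPKM without stretch and 308, 281 and 311 FPKM with stretch, 1.09 ± 0.12 (adjusted p = 1.2e-05, 1.07 without library 3). Loxl1 and Loxl2, which cross-link collagen, rose by 1.22 ± 0.09 (1.18) and 0.93 ± 0.10 (0.84), and Plod2, which modifies its lysines, by 1.05 ± 0.11 (0.97). Mmp15, a membrane-bound metalloproteinase, was at 34.4, 35.5 and 41.1 FPKM without stretch and 5.96, 7.67 and 6.92 FPKM with stretch, −2.28 ± 0.14 (adjusted p = 7.9e-07, −2.29 without library 3). Stretched and unstretched libraries did not overlap for Plat, Timp1 or Mmp15. Of the matricellular proteins, which signal from the matrix without building it, 11 of the 18 tested genes rose and 2 fell, with a median of 0.57 (11, 2 and 0.56 without library 3, 9, 2 and 0.35 with TPM scaling). Spp1, osteopontin, was at 90.9, 127 and 112 FPKM without stretch and 192, 229 and 301 FPKM with stretch, 1.11 ± 0.14 (adjusted p = 5.1e-05, 0.94 without library 3). Lgals3, galectin 3, was at 159.9, 207 and 173 FPKM without stretch and 341, 311 and 365 FPKM with stretch, 0.92 ± 0.10 (adjusted p = 1.8e-05, 0.86 without library 3). Thbs1, thrombospondin 1, rose by 1.08 ± 0.16 (1.19), while Smoc2 changed by −1.51 ± 0.29 (−1.07). Macrophages also express Spp1 and Lgals3, and of the macrophage markers 6 of the 9 tested genes rose and 0 fell, with a median of 0.60 (5, 0 and 0.37 without library 3, 2, 0 and 0.38 with TPM scaling). Lyz2, lysozyme, was at 64.2, 85.5 and 67.3 FPKM without stretch and 155, 165 and 273 FPKM with stretch, 1.40 ± 0.17 (adjusted p = 3.6e-05, 1.15 without library 3). Their part in the 2 rises was not tested.

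Markers of other cells did not move in one direction. Of the endothelial markers 1 of the 10 tested genes rose and 1 fell, with a median of 0.29 (0, 2 and 0.27 without library 3, 0, 3 and 0.12 with TPM scaling). Without unstretched library 1, 0 rose and 2 fell, with a median of 0.04. They summed to 42.0, 53.4 and 51.4 FPKM unstretched and 45.4, 54.7 and 44.8 FPKM stretched. Of the smooth muscle and pericyte markers 3 of the 11 tested genes rose and 3 fell, with a median of 0.26 (5, 3 and 0.35 without library 3, 2, 3 and 0.03 with TPM scaling). This was near the shares of all tested genes, of which 27.5% rose and 26.8% fell. Cnn1, calponin, rose by 1.62 ± 0.23 (1.57), while Myh11, smooth muscle myosin, changed by −1.83 ± 0.18 (−1.73) and Notch3, of pericytes, by −0.55 ± 0.12 (−0.53).

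Of the mechanosensitive channels, adhesion kinases and adaptors 15 of the 27 tested genes rose and 2 fell, with a median of 0.31 (15, 1 and 0.33 without library 3, 9, 7 and 0.08 with TPM scaling). Itgb1, the beta chain of most matrix integrins, was at 696, 582 and 579 FPKM without stretch and 1142, 1005 and 1040.2 FPKM with stretch, a log2 change of 0.78 ± 0.10 (adjusted p = 5.6e-05, 0.80 without library 3). Pxn, paxillin, a focal adhesion scaffold, was at 18.3, 18.98 and 16.6 FPKM without stretch and 34.0, 28.1 and 27.6 FPKM with stretch, 0.70 ± 0.09 (adjusted p = 4.4e-05, 0.75 without library 3). Itga5, of the fibronectin receptor, rose by 0.71 ± 0.12 (0.81), Ptk2, focal adhesion kinase, by 0.45 ± 0.08 (0.40) and Pkd2, polycystin 2, by 0.83 ± 0.08 (0.75). Trpc6, a cation channel linked to stretch, fell to 12.6, 12.5 and 11.03 from 28.6, 23.6 and 25.6 FPKM, −1.04 ± 0.14 (adjusted p = 5.5e-05, −0.99 without library 3). The groups of Itgb1, Pxn and Trpc6 did not overlap.

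Of the neurotrophin and axon guidance genes 8 of the 26 tested genes rose and 8 fell, with a median of −0.04 (8, 7 and −0.21 without library 3, 5, 11 and −0.15 with TPM scaling). These shares were near those of all tested genes, 27.5% and 26.8%. The median was 0.14 with quantile normalization. Bdnf, brain-derived neurotrophic factor, was at 0.850, 0.770 and 0.677 FPKM without stretch and 5.54, 3.77 and 4.06 FPKM with stretch, a log2 change of 1.61 ± 0.15 (adjusted p = 4.7e-06, 1.66 without library 3). Its receptor Ntrk2 was at 3.48, 4.04 and 2.54 FPKM without stretch and 7.63, 6.26 and 5.56 FPKM with stretch, 0.79 ± 0.16 (adjusted p = 0.00125, 0.88 without library 3), while Ntf3, neurotrophin 3, changed by −1.50 ± 0.21 (−1.73). Both members of the Bdnf pair were higher in every stretched library. Sema3c, a semaphorin of outflow tract development, rose by 1.33 ± 0.09 (1.26), and Ntn1, netrin 1, was at 24.99, 24.0 and 23.7 FPKM without stretch and 4.89, 6.23 and 3.65 FPKM with stretch, −2.11 ± 0.19 (adjusted p = 4.5e-06, −1.95 without library 3). Nrp2, a semaphorin receptor, rose by 0.74 ± 0.16 (0.50), and the related Nrp1 changed by −0.76 ± 0.09 (−0.68). Of the imprinted and growth genes 5 of the 19 tested genes rose and 7 fell, with a median of −0.01 (4, 7 and 0.11 without library 3, 2, 8 and −0.21 with TPM scaling). Without unstretched library 1, 3 rose. Beside these counts stand 27.5% of all tested genes that rose and 26.8% that fell. H19, an imprinted non-coding RNA, was at 12.5, 19.3 and 14.96 FPKM without stretch and 22.1, 27.7 and 30.8 FPKM with stretch, 0.75 ± 0.19 (adjusted p = 0.00528, 0.65 without library 3). By contrast Cdkn1c, a growth inhibitor imprinted beside it, was at 16.8, 20.4 and 22.9 FPKM without stretch and 6.60, 10.8 and 3.73 FPKM with stretch, −1.47 ± 0.27 (adjusted p = 6.2e-04, −1.14 without library 3), and Peg3 changed by −0.73 ± 0.14 (−0.88). H19 was higher and Cdkn1c lower in all 3 stretched libraries.

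**Figure D3:**
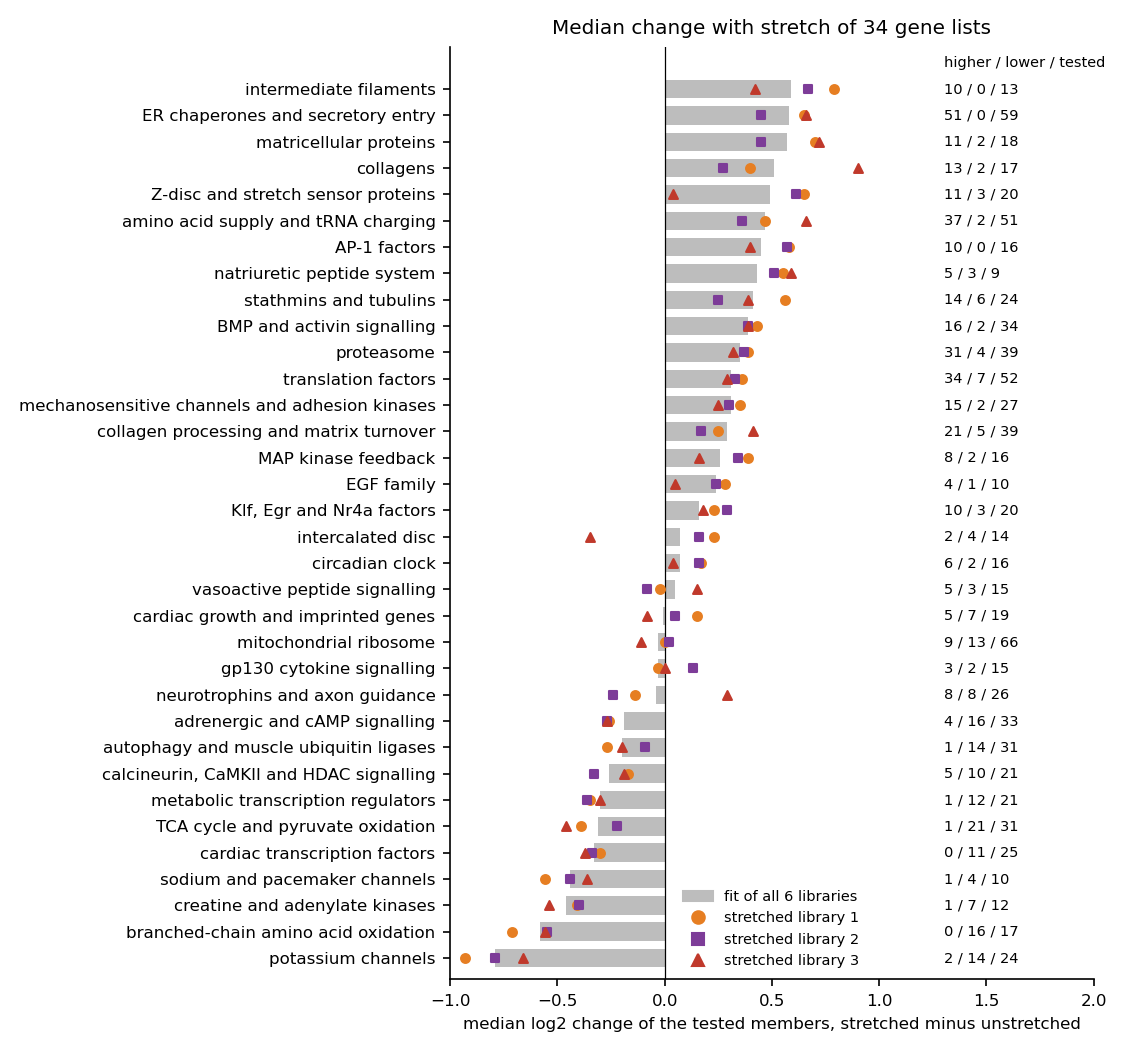
Median log2 change with stretch of the tested genes in each of 34 lists (horizontal axis); grey bars are medians of the fitted changes, and the circle, square and triangle are the medians of stretched libraries 1, 2 and 3 against the unstretched mean. The numbers at the right count the genes that rose, that fell and that were tested; potassium channels lie lowest and intermediate filaments highest, and library 3 lies apart from the other libraries in the collagen, Z-disc and intercalated disc lists.

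Stretched library 3 shared most of the large changes of the other stretched libraries and differed in particular genes. Of 280 genes at least 1 log2 unit above the unstretched mean in the average of libraries 1 and 2 (median 1.26), library 3 was at least 1 above for 149, 0.5 to 1 above for 98, 0 to 0.5 above for 25 and on the other side for 8 (median 1.03). Of 507 genes at least 1 below (median −1.29), it was at least 1 below for 324 and on the other side for 7 (median −1.20). The genes that follow were ranked by the distance of library 3 from libraries 1 and 2, so these distances are a description. Highest were Casq1, the calcium buffer of fast muscle, with 20.9, 21.4 and 72.1 FPKM in stretched libraries 1 to 3, Cd34, a surface protein of progenitor, endothelial and stromal cells, with 19.2, 20.6 and 67.4, and Scd2, which desaturates fatty acids, with 95.3, 88.6 and 284. Phgdh and Psat1, of serine synthesis, stood at 31.8, 24.6 and 66.2 and at 19.7, 15.1 and 41.8 FPKM, and Fads1, another desaturase, at 21.5, 18.9 and 48.8 FPKM. Each was higher in library 3 than in both other libraries. Lowest in library 3 were Sln, sarcolipin, which inhibits the calcium pump and is mainly atrial in the heart, with 24.4, 33.5 and 1.41 FPKM, Myl7, the atrial myosin light chain, with 85.3, 100 and 25 FPKM, and Cited1, a transcriptional cofactor, with 66.0, 96.4 and 15.7 FPKM. The change of Casq1 with stretch was 1.41 ± 0.34 (0.83), of Cd34 1.35 ± 0.36 (0.78), of Myl7 −1.76 ± 0.46 (−1.15) and of Cited1 −1.77 ± 0.45 (−1.01), so that their sizes rest in part on this library. Psat1, Phgdh and Sln did not pass the test with it or without it: Psat1 changed by 0.47 ± 0.25 (adjusted p = 0.131) and 0.06 without library 3 (adjusted p = 0.639), Phgdh by 0.30 ± 0.25 (adjusted p = 0.348) and −0.11 without library 3 (adjusted p = 0.474), and Sln by −1.79 ± 1.0 (adjusted p = 0.147) and −0.59 without library 3 (adjusted p = 0.568). Without stretched library 2, Psat1 (0.77, adjusted p = 0.0111) and Phgdh (0.59, adjusted p = 0.046) passed. Fads1 did not pass with all libraries, −0.54 ± 0.26 (adjusted p = 0.0945), and was called lower at −0.96 without library 3 (adjusted p = 6.1e-05). For Myh6, the adult cardiac myosin, the change was −1.31 ± 0.28 (adjusted p = 0.00171) with it and −0.86 without library 3 (adjusted p = 1.1e-04), and for Scd2, whose groups overlap, 0.33 ± 0.31 (adjusted p = 0.399) and −0.21 without library 3 (adjusted p = 0.0296).

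**Figure D4:**
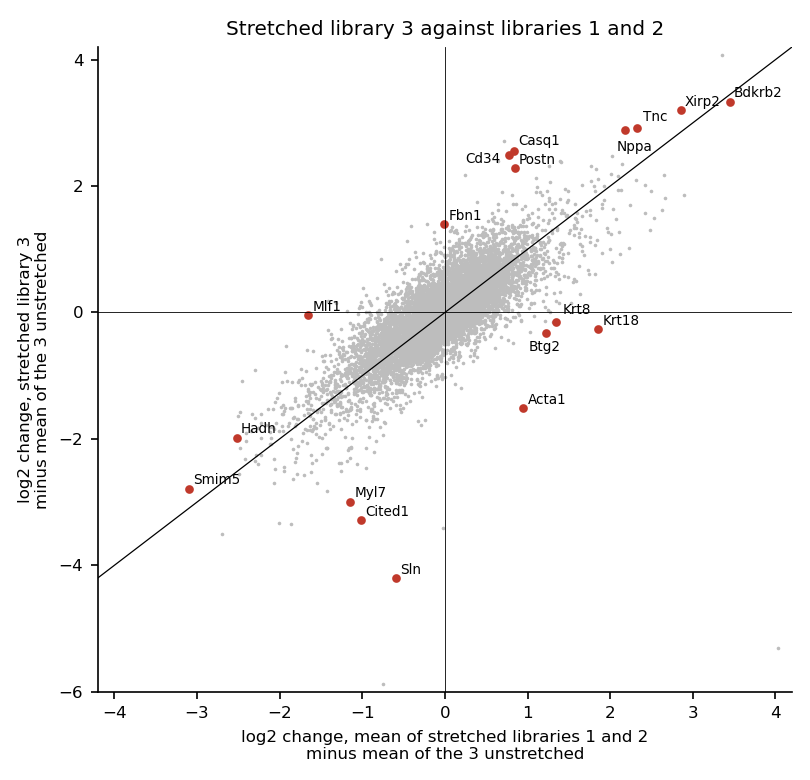
Change of each tested gene in stretched library 3 (vertical axis) against the mean of stretched libraries 1 and 2 (horizontal axis), both as log2 of FPKM + 1 minus the unstretched mean. Points on the diagonal changed alike; 3 genes lie outside the axes. Labels mark genes far from the diagonal, such as Casq1 above it and Sln and Myl7 below it, and some of the largest changes, such as Nppa.

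On the linear scale the stretched libraries held more summed FPKM. The group mean was higher with stretch for 6533 genes, and these rises summed to 155380 FPKM. It was lower for 6839 genes, whose summed FPKM fell by 53836, which leaves a net rise of 101544 FPKM. The 15 genes with the largest rises carried 35658 FPKM, or 22.9% of the rises. The largest rise was of Actc1, cardiac alpha-actin, from 8289, 8322 and 8407 to 18338, 18628 and 13569 FPKM, with a log2 change of 1.0 ± 0.22 (adjusted p = 0.0024, 1.15 without library 3) that was 0.00 and did not pass the test with quantile normalization. The small calcium-binding protein S100a4 went from 987, 940.0 and 943 to 2345, 2006 and 3474 FPKM, 1.41 ± 0.16 (adjusted p = 1.6e-05, 1.18 without library 3), and its relative S100a6 rose by 1.0 ± 0.09 (0.95), and by 0.53 with quantile normalization. By list, summed FPKM rose by 12999 in the cardiomyocyte markers, 9378 in the natriuretic peptide system, 6060.0 in Z-disc and stretch sensor proteins, 3528 in the ER list, 3449 in translation factors and 3355 in matricellular proteins. Nppa is in the first and the second of these lists. Among the cardiomyocyte markers Actc1 rose by 8506 FPKM and Nppa by 6682 FPKM, while of the 18 tested markers 5 rose and 7 fell. The sum of the TCA cycle and pyruvate genes fell by 1503 FPKM, and that of the creatine and adenylate kinases fell by 515 FPKM. Among the falls Myh6 went from 3439, 3631 and 3985 to 1823, 2242 and 798 FPKM. Atp2a2, the calcium pump of the sarcoplasmic reticulum, went from 1339, 1474 and 1546 to 648, 867 and 549 FPKM, −1.10 ± 0.14 (adjusted p = 4.6e-05, −0.95 without library 3). The inhibitor of this pump, phospholamban (Pln), went from 1082, 1106 and 1225 to 451, 714 and 479 FPKM, −1.08 ± 0.17 (adjusted p = 1.7e-04, −1.0 without library 3). Fabp3, which carries fatty acids in the cytosol, changed by −1.13 ± 0.20 (−0.86). Library 3 was the lowest for Myh6 and stayed below the unstretched libraries for Atp2a2 and Pln.

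The same stretch contrast was set against that in cells with Wnt5a siRNA (3 stretched and 3 unstretched libraries), which shares no library with it. Wnt5a, the target of that siRNA, was at 6.15, 4.599 and 6.81 FPKM unstretched and 6.22, 5.88 and 5.56 FPKM stretched in those libraries, against 12.3, 10.4 and 11.6 FPKM in the unstretched control siRNA libraries. With Wnt5a siRNA 888 genes rose (8.44%) and 798 fell (7.59%). The change itself differed between the siRNAs for 2503 of the 10518 genes (23.8%), 1277 of them with the response under control siRNA the higher (12.1%) and 1226 the lower (11.7%). Without unstretched control library 3 this count was 1612, and without stretched control library 3 it was 3638. Of the genes that rose with control siRNA 619 (21.4%) rose also with Wnt5a siRNA, which were 69.7% of the latter, and 18 fell. Of those that fell 605 (21.4%) fell also with Wnt5a siRNA, 75.8% of the latter, and 20 rose.

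Of all tested genes 12.1% had a higher and 11.7% a lower response with control siRNA. Of 59 ER genes the response was higher with control siRNA in 26 and lower in 0, of 51 amino acid and tRNA genes in 25 and 0, of 39 proteasome genes in 17 and 1, of 52 translation factors in 19 and 2 and of 13 intermediate filaments in 8 and 0. Of 17 branched-chain oxidation genes it was lower in 12 and higher in 0, and of 24 potassium channels lower in 9 and higher in 1. Of 17 collagens it was higher in 1 and lower in 0. Dnajc3 changed by 0.49 ± 0.08 with Wnt5a siRNA, a difference from control siRNA of 0.51 ± 0.12 (adjusted p = 0.0105). Aldh6a1 changed by −0.40 ± 0.13, a difference of −0.88 ± 0.18 (adjusted p = 0.00569). Hspa5 changed by 0.73 ± 0.09 with Wnt5a siRNA, and the difference of 0.30 ± 0.13 (adjusted p = 0.111) did not pass the test. It passed without stretched library 3 (0.35, adjusted p = 0.0467) and with library weights (0.41, adjusted p = 0.0081). Corin changed by −1.66 ± 0.22, and its difference of −0.49 ± 0.32 (adjusted p = 0.279) did not pass. Markers of the cell types moved as well. With Wnt5a siRNA, 9 of 9 macrophage markers rose (median 1.04), 9 of 13 fibroblast markers rose and 1 fell (0.73), and 5 of 10 endothelial markers rose and 0 fell (0.59). Of 11 smooth muscle and pericyte markers 1 rose and 6 fell (−0.62), and of 18 cardiomyocyte markers 0 rose and 8 fell (−0.47). The response was lower with control siRNA in 3 fibroblast, 1 macrophage and 4 endothelial markers, higher in 5 smooth muscle markers, and higher in 3 and lower in 3 cardiomyocyte markers. The part of these cells in the differences was not tested.

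Among the genes with the smallest adjusted p for this difference were Prrg4, a membrane protein with a Gla domain, Fibin, a secreted protein, Pkp1, a desmosomal plakophilin, and Tmem43, a membrane protein of the nuclear envelope. In the control siRNA libraries Prrg4 was at 17.6, 17.0 and 15.5 FPKM without stretch and 52.1, 53.3 and 51.6 FPKM with stretch, a log2 change of 1.59 ± 0.09 (1.60). It changed by 0.03 ± 0.09 with Wnt5a siRNA, a difference of 1.56 ± 0.13 (adjusted p = 2.0e-04). Fibin was at 29.1, 25.5 and 27.3 FPKM without stretch and 108, 105 and 112 FPKM with stretch, a log2 change of 1.95 ± 0.06 (1.93), and changed by 0.95 ± 0.06 with Wnt5a siRNA, a difference of 1.0 ± 0.08 (adjusted p = 2.0e-04). Pkp1 changed by 1.88 ± 0.15 (1.77) with control and −0.21 ± 0.15 with Wnt5a siRNA, 2.08 ± 0.21 (adjusted p = 4.6e-04). These genes rose with control siRNA without overlap between the groups. Tmem43 changed by 1.06 ± 0.07 (1.09) and 0.18, 0.88 ± 0.10 (adjusted p = 7.1e-04), Hr, a corepressor of nuclear receptors, by 0.84 ± 0.12 (0.85) and −0.57, 1.41 ± 0.17 (adjusted p = 0.00104), and Ciart by 1.08 ± 0.10 (1.02) and −0.25, 1.33 ± 0.14 (adjusted p = 4.6e-04). In the other direction Tpp1, a lysosomal peptidase, was at 73.7, 79.0 and 80.0 FPKM without stretch and 51.9, 53.2 and 52.3 FPKM with stretch in the control siRNA libraries, a log2 change of −0.55 ± 0.06 (−0.55). It changed by 0.24 ± 0.06 with Wnt5a siRNA, −0.80 ± 0.08 (adjusted p = 4.6e-04). Mmp15 changed by −2.28 ± 0.14 (−2.29) and −0.54, −1.73 ± 0.19 (adjusted p = 5.7e-04), Tspan18, a tetraspanin, by −2.07 ± 0.12 (−2.11) and −0.39, −1.68 ± 0.17 (adjusted p = 4.6e-04), and Bdh2, a cytosolic dehydrogenase, by −1.27 ± 0.11 (−1.31) and 0.23, −1.49 ± 0.16 (adjusted p = 4.6e-04). Nppa changed by −0.97 ± 0.35 with Wnt5a siRNA, 3.38 ± 0.49 (adjusted p = 0.00173), Nppb by 0.16 ± 0.39, 2.15 ± 0.55 (adjusted p = 0.016), and Myh7, beta myosin, by 0.46 ± 0.13 (0.43) and −0.66, 1.12 ± 0.19 (adjusted p = 0.00257). The rise of Myh7 with control siRNA did not pass the test with TPM scaling, 0.23 (adjusted p = 0.123), nor with quantile normalization (0.14).

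**Figure D5:**
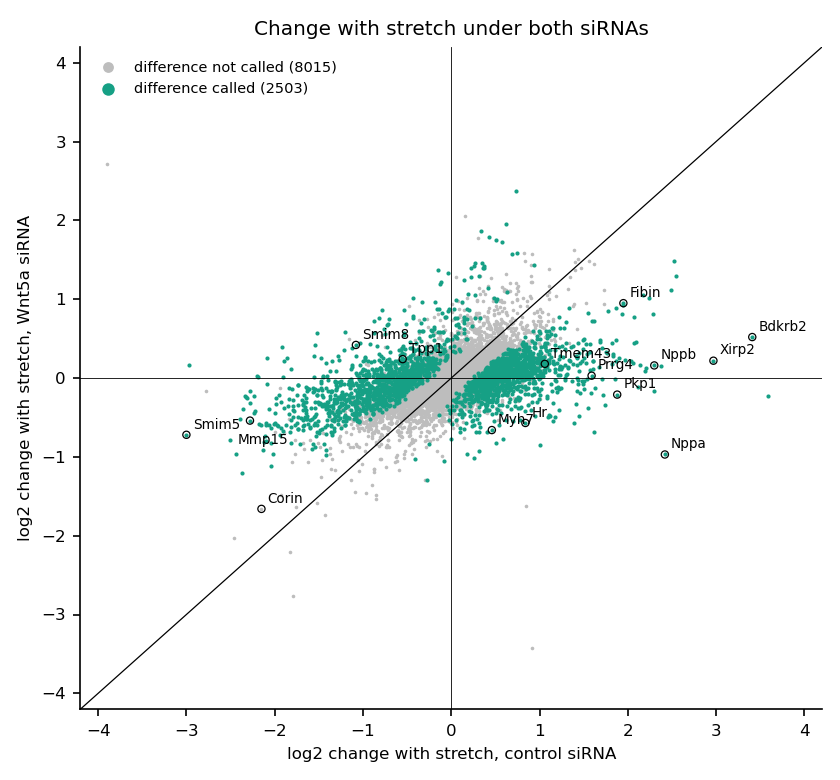
Change of each tested gene with stretch under control siRNA (horizontal axis) and under Wnt5a siRNA (vertical axis), both as log2 on the FPKM + 1 scale; the diagonal marks equal change. Green points are the 2503 genes whose change differed between the siRNAs, grey points the other 8015, and 1 gene lies outside the axes; Nppa, Xirp2 and Bdkrb2 lie far below the diagonal and Corin close to it.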

How the data were processed

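RNA of neonatal rat ventricular cardiomyocytes was sequenced from 12 libraries in 4 groups of 3, of which the 6 with control siRNA are compared here. Per the labels' protocols, total RNA came from a miRNeasy extraction, and the TruSeq kit used for the libraries keeps polyadenylated RNA and its strand. Per the submitters' processing notes, TopHat2 2.1.1, Bowtie2 and Cuffdiff 2.2.1 were used with the build rn6. What the authors deposited is FPKM, for which annotation, strand setting, scaling and treatment of reads with several matches are not stated. Overlapping genes and near-identical copies are therefore uncertain, and a 0 can be a failed estimate.

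FPKM were taken as log2(FPKM + 1), a filter of at least 1 FPKM in at least 3 libraries was set, and 10518 genes were tested in R 4.3.3 by limma 3.58.1, with moderated variances that follow the mean level. The model of 4 group means was fitted to all 12 libraries. Tests were 2-sided, and calls were made at a Benjamini-Hochberg adjusted p under 0.05. An exact test of 3 against 3 libraries cannot go below 0.1, so none is given. The fit was tested on simulated data.

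The 42 gene lists hold 1084 symbols, of which the files list 1032 and 921 were tested. The members and lists were chosen with earlier results of these data known. Named genes were the readouts of the study's subject, the 20 largest called rises and falls with and without stretched library 3, without overlap and with at least 5 FPKM in the higher group, up to 6 called members of each list in each direction by smallest adjusted p, the genes in which stretched library 3 lay farthest from the other stretched libraries, the largest changes of summed FPKM and the genes with the smallest p for a difference between the siRNAs among those called for stretch. The text names some of these. Genes with an ER stress element are named in full. Of the 17312 symbols 14809 are current names in the RefSeq table and 2117 synonyms.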

Additional observations from a re-analysis of the deposited data

Results flagged for a closer look

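By the limma test of the difference itself, cells with control and with Wnt5a siRNA differed in how these genes moved with stretch. The response was higher with control siRNA than with Wnt5a siRNA for Nppa (difference of 3.38 on the log2 scale), Nppb (2.15), Pkp1 (2.08), Prrg4 (1.56), Hr (1.41), Ciart (1.33), Myh7 (1.12), Fibin (1.0), Tmem43 (0.88) and Dnajc3 (0.51). It was lower for Mmp15 (−1.73), Tspan18 (−1.68), Bdh2 (−1.49), Tpp1 (−0.80) and Aldh6a1 (−0.88). Hr, Myh7 and Tpp1 passed the test with both siRNAs in opposite directions: Hr at 0.84 with control and −0.57 with Wnt5a siRNA, Myh7 at 0.46 and −0.66, and Tpp1 at −0.55 and 0.24. Nppa, Pkp1, Ciart and Bdh2 also changed sign, with Wnt5a siRNA changes that did not pass. Groups of 3 libraries are too small for a test of single outlying libraries, so stretched library 3 was not tested as one.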

How the results depend on the processing

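Of the 16 alternatives, those that left out 1 control siRNA library called 4830 to 6035 genes. TPM scaling gave 1451 rises and 4493 falls. The count of genes whose response differed between the siRNAs was 4928 with library weights and 1612 to 3638 without 1 control siRNA library each. Of the 239 called genes named in the text 233 passed the test under every alternative that tested them, and the other 6 are named with the setting beside their values. The cause of these shifts was not tested. Of the genes named for library 3, Scd2, Phgdh, Psat1, Fads1 and Sln did not pass the test with all libraries. The change of Scd2 turned to −0.08 with library weights and ran from −0.21 to 0.62 over the left-out libraries, and that of Phgdh ran from −0.11 to 0.59. Whether the replicate numbers pair the libraries is not stated. Deviations of libraries with the same number correlated at 0.249, 0.059 and −0.019, and those of libraries with different numbers at −0.212 to 0.1. With 3 libraries in a group these values cannot settle a pairing. With the replicate block 5710 genes were called. FPKM give no depth, so counting error could not be separated from the spread between libraries.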

Other observations

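Lists that the report describes only in part or not at all add the following values. Of the cardiomyocyte markers 5 of the 18 tested genes rose and 7 fell, with a median of −0.24 (6, 7 and −0.11 without library 3, 2, 10 and −0.47 with TPM scaling). With quantile normalization 1 rose and 12 fell, and without stretched library 1, 3 rose. Of the Schwann and neuronal markers 1 of the 5 tested genes rose and 1 fell, with a median of −0.18 (1, 1 and −0.24 without library 3, 1, 1 and −0.27 with TPM scaling). The fall was lost without unstretched library 1 or 3, and without the latter the median was 0.07. Of the epicardial and mesothelial markers 2 of the 6 tested genes rose and 0 fell, with a median of 0.12 (2, 1 and 0.03 without library 3, 1, 1 and −0.03 with TPM scaling). Of the erythroid markers 0 of the 2 tested genes rose and 1 fell, with a median of −0.08 (0, 1 and 0.16 without library 3, 0, 1 and −0.17 with TPM scaling). Their summed levels were 97.2, 91.1 and 95.7 FPKM unstretched and 113, 94.4 and 114 FPKM stretched for Schwann markers. For epicardial markers the sums were 19.6, 19.9 and 18.5 FPKM unstretched and 22.2, 21.1 and 26.9 FPKM stretched. The histone genes Hist1h4m and Hist2h4, chosen after their values were seen, were listed at 0 in all 3 stretched libraries. They stood at 1.346, 1.218 and 1.326 FPKM and at 1.435, 3.246 and 1.414 FPKM in the unstretched ones. The unstretched values of Hist1h4m differed only as the value of 1 fragment differed between these libraries, as equal fragment numbers would give. FPKM carry no read numbers, so both genes may rest on a few fragments, and a 0 can be a failed estimate. The absence of both genes with stretch is therefore a description and not a shown loss.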
